A study of Rattus norvegicus with 8 samples.

Results

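The miRNAs miR-146a, miR-146b and miR-155 were described in exosomes, small vesicles shed by cells, from rat intervertebral disc. The members were chosen by name, as the rows for both arms (5p and 3p) of these 3 hairpins in the deposited table, with counts summed per mature name. The rat names were rno-miR-146a-5p, rno-miR-146a-3p, rno-miR-146b-5p, rno-miR-146b-3p, rno-miR-155-5p and rno-miR-155-3p. Of these 6, 5 had a row, of 1273 summed names in the table and 415 with rat names. rno-miR-146a-3p had none. These miRNAs were picked with the difference in miR-146a-5p and miR-155-5p between the groups already known, so their values in that comparison are given as a description, without a p-value.

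There were 4 small RNA libraries of exosomes from NPPC, the nucleus pulposus progenitor cells, and 4 from NPC, the nucleus pulposus cells of the soft centre of the disc. Both are labelled as rat intervertebral disc, and the labels give no treatment, strain, sex, age, passage or number of animals. Separate cultures are not mentioned, and the spread that the tests below use could be technical. miR-140-3p, from a cartilage miRNA gene, was at 6739 to 7579 CPM (counts per 1000000, with library sizes scaled by the TMM method) in NPPC and 9755 to 15170 CPM in NPC exosomes. Its other arm, miR-140-5p, was at 756 to 1054 CPM in NPPC and 277 to 1017 CPM in NPC exosomes. NPPC libraries held 819845 to 1416940 counts and NPC libraries 329011 to 681591. NPC replicate 1 stood apart: its TMM scaling factor was 1.64, where the other libraries lay between 0.872 and 1.01. Over 278 rat sums, the Spearman correlation of GC percent with the deviation of a sum from its mean was 0.855 in that library and -0.624 to -0.047 in the others.

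miR-146a and miR-146b come from different genes and share a seed, the bases near the 5′ end that pair with target transcripts. In mouse and human immune cells miR-146a is induced through NF-kappaB and represses TRAF6 and IRAK1, which carry Toll-like receptor and interleukin signals. It thereby restrains the pathway that induces it. miR-155 is induced by the same signals, represses SOCS1 and the phosphatase SHIP1, and mostly acts to sustain inflammatory signalling.

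The mature sequences below show the shared seed of the 2 miR-146 miRNAs and the separate seed of miR-155. They are from RefSeq on build GRCr8, which held all 6 names, and capitals mark the seed (bases 2 to 8).
miR-146a-5p: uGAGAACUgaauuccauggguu
miR-146b-5p: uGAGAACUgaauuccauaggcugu
miR-155-5p: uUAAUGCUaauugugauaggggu
miR-146a-3p: aCCUGUGAaguucaguucuuu
miR-146b-3p: cCUAGGGAcucaguucuggug
miR-155-3p: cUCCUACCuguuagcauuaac
The 5p arms of miR-146a and miR-146b had the same first 17 bases. Over the 22 positions they have in common 20 were identical, and the differences were G18A and U21C (the base of miR-146a, the position from the 5′ end, the base of miR-146b). miR-146b-5p is 2 bases longer, and a read cut short at base 17 could belong to either. No 3p arm shared the seed of another member.

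The hairpins are shown because only their 5p arms gave counts high enough to test. The 2 capital stretches are the 5p and the 3p arm.
Mir146a: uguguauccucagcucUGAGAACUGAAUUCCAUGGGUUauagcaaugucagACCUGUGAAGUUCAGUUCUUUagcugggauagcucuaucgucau
Mir146b: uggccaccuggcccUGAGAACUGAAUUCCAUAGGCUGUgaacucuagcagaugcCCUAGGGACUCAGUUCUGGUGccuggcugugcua
Mir155: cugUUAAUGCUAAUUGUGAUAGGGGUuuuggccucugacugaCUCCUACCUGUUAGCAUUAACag
On GRCr8 the Mir146a hairpin lies at chr10:28349996-28350090 on the minus strand, Mir146b at chr1:255144860-255144947 on the plus strand and Mir155 at chr11:37261114-37261178 on the plus strand. The deposited 5p sequences were identical to these. The deposited miR-146b-3p row carried 1 further base at its 3′ end, and the miR-155-3p row began 1 base earlier and ended 1 base earlier.

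miR-146a-5p was the member with the largest difference, 10.4 times as high by group mean in NPPC as in NPC exosomes. It was at 674, 775, 1175 and 989 TMM-scaled CPM in NPPC replicates 1 to 4, and at 24.1, 99.03, 119 and 104 CPM in NPC replicates 1 to 4. The groups did not overlap, and the lowest NPPC library lay far above the highest NPC library. The means were 903 ± 224 CPM in NPPC and 86.6 ± 42.6 CPM in NPC exosomes (SD, n = 4 each), and the log2 fold change of NPPC over NPC was 3.38 ± 0.48 (SE). No other tested sum had a higher log2 fold change. miR-146a-5p was picked with this difference known, so nothing is read from that rank. Without NPC replicate 1 its log2 fold change was 3.08. By reads it ranked 66th to 84th among rat names in NPPC libraries and 161st to 204th in NPC libraries. The rat names detected were 326 to 360 in NPPC and 272 to 316 in NPC libraries.

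miR-146b-5p, with the same seed, overlapped between the groups. It was at 448, 352, 458 and 412 CPM in NPPC replicates 1 to 4, and at 87.3, 446, 527 and 386 CPM in NPC replicates 1 to 4. NPC replicate 1 was low and NPC replicate 3 the highest of all. The means were 418 ± 47.9 CPM in NPPC and 362 ± 192 CPM in NPC exosomes (SD, n = 4 each). The log2 fold change was 0.21 ± 0.46 (SE), and it turned to -0.11 without NPC replicate 1 and to -0.22 with a correction for GC content.

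miR-155-5p stood between them in its difference. It was at 217, 277, 303 and 339 CPM in NPPC replicates 1 to 4, and at 14.9, 130.4, 170.0 and 119 CPM in NPC replicates 1 to 4. The groups did not overlap, and NPC replicate 1, with 8 reads, was the lowest. The means were 284 ± 51.4 CPM in NPPC and 109 ± 66.2 CPM in NPC exosomes (SD, n = 4 each), a log2 fold change of 1.38 ± 0.58 (SE). Of 390 tested sums 7 had a higher one. Nothing is read from this place either, since miR-155-5p was picked with its difference known. The log2 fold change was 1.03 without NPC replicate 1 and 0.60 with the GC correction.

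**Figure D1:**
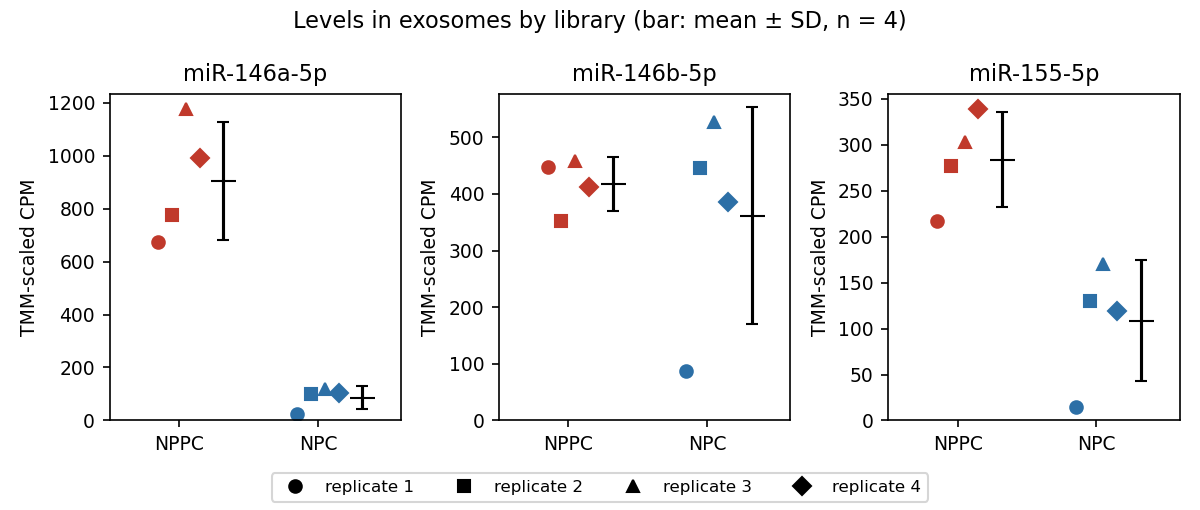
TMM-scaled CPM of the 3 5p arms in each library, NPPC left of NPC, with 1 symbol per replicate number and the mean ± SD of 4 libraries beside them. All NPPC libraries lie above all NPC libraries for miR-146a-5p and miR-155-5p, and the groups overlap for miR-146b-5p.

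These AU-rich members, with GC contents of 40.9% for miR-146a-5p, 41.7% for miR-146b-5p and 34.8% for miR-155-5p, were all lowest in NPC replicate 1. With the GC correction the log2 fold change of miR-146a-5p was 2.83 ± 0.23 (SE). Relative to total counts in place of TMM factors it was 3.27, that of miR-146b-5p 0.13 and that of miR-155-5p 1.32, while the median of all sums moved to -0.29, against -0.038 with TMM factors.

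Among the 390 sums that passed the filter, 278 with rat names, 24 (6.15%) had all NPPC libraries above all NPC libraries. Of the 3 members that passed the filter, 2 were among them. Those 2 were picked with their difference between the groups already known, so nothing is read from their place among the 24. With an adjusted p under 0.05 by edgeR's quasi-likelihood test and Benjamini-Hochberg adjustment, 1 sum (0.256%) was called. It was miR-146a-5p, whose value in this contrast led to the choice of members, so nothing is read from this count. No sum was called with the replicate number as a block, where 48 had an unadjusted p under 0.05, or when rows were not summed, where 59 had. With a library left out, 1 sum was called without NPC replicate 1 and 0 without any of the other 7, where 23 to 65 had an unadjusted p under 0.05. With DESeq2's Wald test 6 sums were called, and 8 by edgeR with no filter.

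**Figure D2:**
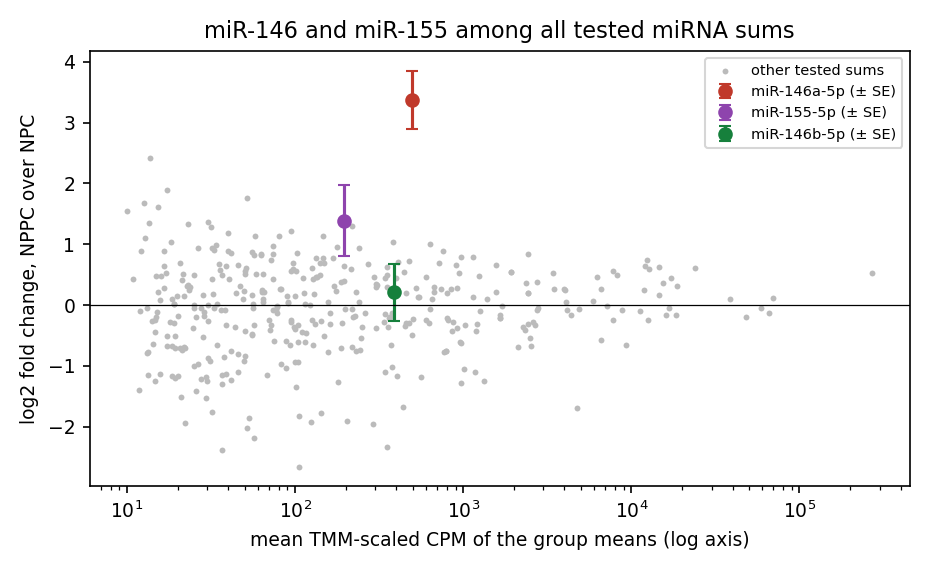
Log2 fold change of NPPC over NPC against mean TMM-scaled CPM (log axis) for the 390 tested sums, with the 3 members in colour and bars for their SE. miR-146a-5p, picked with this difference known, has the highest fold change of all, at 3.38, and miR-146b-5p lies among the other sums at 0.21.

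Within a library, the order of the 2 miR-146 miRNAs was opposite in the 2 kinds of exosome. This comparison needs no scaling between libraries, and the members have nearly the same GC content. NPPC replicates 1 to 4 held 559, 786, 1486 and 1141 reads of miR-146a-5p beside 372, 357, 579 and 475 of miR-146b-5p. NPC replicates 1 to 4 held 13, 60, 71 and 54 reads of miR-146a-5p beside 47, 270, 313 and 201 of miR-146b-5p. miR-146a-5p was thus the higher in 4 of 4 NPPC libraries, by 1.5 to 2.57 times, and the lower in 4 of 4 NPC libraries, at 0.222 to 0.277 of miR-146b-5p.

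Of the reads of both 5p arms, miR-146a-5p held 60.0%, 68.8%, 72.0% and 70.6% in NPPC replicates 1 to 4. It held 21.7%, 18.2%, 18.5% and 21.2% in NPC replicates 1 to 4. The 95% Wilson intervals, which cover counting error only, ran from 56.9% at the lowest to 73.9% at the highest in NPPC libraries and from 13.1% to 33.6% in NPC libraries. The widest, 13.1% to 33.6%, was that of NPC replicate 1 with 60 reads, and that library did not stand apart in this share. The means were 67.8% ± 5.36 in NPPC and 19.9% ± 1.8 in NPC exosomes (SD, n = 4 each).

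On the log2 scale, with 1 added to each count, the ratio of miR-146a-5p to miR-146b-5p averaged 1.09 ± 0.34 in NPPC and -1.98 ± 0.18 in NPC exosomes (SD, n = 4 each), a difference of 3.07 that was not tested.

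**Figure D3:**
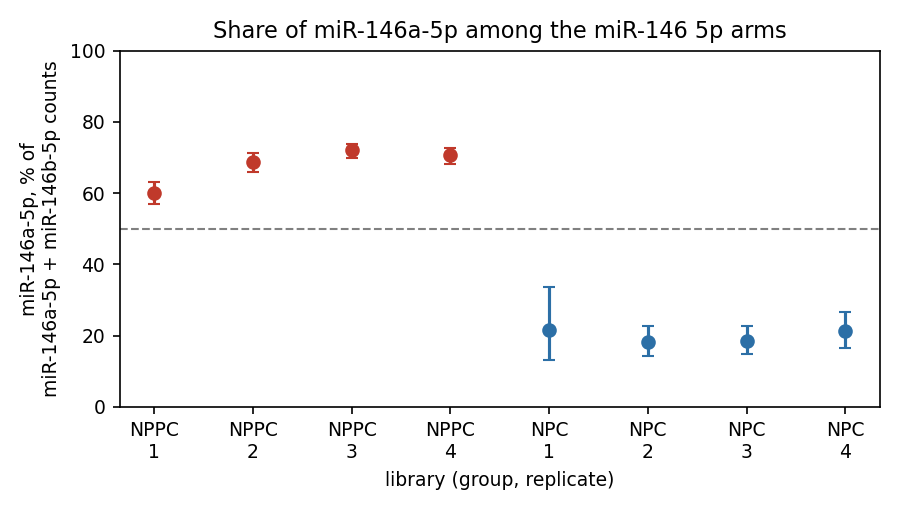
Share of miR-146a-5p in the counts of miR-146a-5p plus miR-146b-5p in each library, NPPC left of NPC, with 95% Wilson intervals and a dashed line at equal counts. The NPPC libraries sit between 60.0% and 72.0% and the NPC libraries between 18.2% and 21.7%.

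The sum of both miR-146 5p arms, which share 1 seed, was at 1122, 1127, 1632 and 1401 CPM in NPPC replicates 1 to 4, against 111, 545, 646 and 490 CPM in NPC replicates 1 to 4. The groups did not overlap. The NPPC mean was 2.95 times the NPC mean, and 2.36 times without NPC replicate 1, beside 10.4 times for miR-146a-5p alone. A further 2 rows in the table, both with a bovine name, began with the same seed. No other row had the seed of miR-155-5p.

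miR-155-5p was lower than miR-146b-5p in 8 of 8 libraries. miR-146b-5p had 1.21 to 2.07 times its reads in NPPC and 3.10 to 5.88 times in NPC libraries. miR-146a-5p exceeded miR-155-5p in 4 of 4 NPPC libraries, by 2.80 to 3.88 times, and in 1 of 4 NPC libraries, NPC replicate 1, where the counts were 13 and 8. In NPPC exosomes the order of reads was therefore miR-146a-5p, miR-146b-5p and miR-155-5p in every library. In NPC exosomes miR-146b-5p came first in every library, and miR-155-5p and miR-146a-5p did not keep 1 order. Reads of different miRNAs also reflect how well each is ligated and amplified, so these are orders of reads.

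The 3p arms were at the edge of detection. miR-146b-3p had 6 reads each in NPPC replicates 3 and 4 and 8 in NPC replicate 2, and was listed at 0 in the other libraries. miR-155-3p had 5 reads in NPPC replicate 2 and was listed at 0 elsewhere. Neither passed the filter. Of 5804 deposited values above 0, 402 lay under 5 and the smallest was 1.25, so such a 0 may stand for a few reads.

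Over all libraries the 3p arm took 20 of 2634 reads of the miR-146b hairpin, 0.759% (95% Wilson interval 0.492% to 1.17%), and 5 of 1490 of the miR-155 hairpin, 0.336% (0.143% to 0.783%). These intervals cover counting error only, and the 3p reads came from 3 libraries for miR-146b and 1 for miR-155. Where a listed 0 stands for a few reads, the shares are too low. The 5p arm was the higher in 8 of 8 libraries for both hairpins. With the 3p arm at 0 in most libraries, the ratio of the arms is not known there, and no mean or test of it is given.

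By the root mean square difference between centred log2 CPM profiles over the 8 libraries, miR-350 was most like miR-146a-5p among 275 rat sums outside the members, at 0.902. It was at 73.5, 78.9, 84.6 and 81.5 CPM in NPPC replicates 1 to 4, and at 0, 54.5, 25.3 and 13.5 CPM in NPC replicates 1 to 4. miR-136-5p (1.09), miR-380-3p (1.12), miR-664-3p (1.13) and miR-495 (1.15) followed, and the median over the 275 sums was 1.82. All 5 had fewer reads than miR-146a-5p, and 4 of them were at 0 in NPC replicate 1. miR-155-5p, at 0.943, would have come second in this order, and miR-146b-5p, at 1.55, 87th. The profiles carry the difference between the groups, which was known for miR-146a-5p and miR-155-5p when they were picked. Nothing is therefore read from the places of the members.

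**Figure D4:**
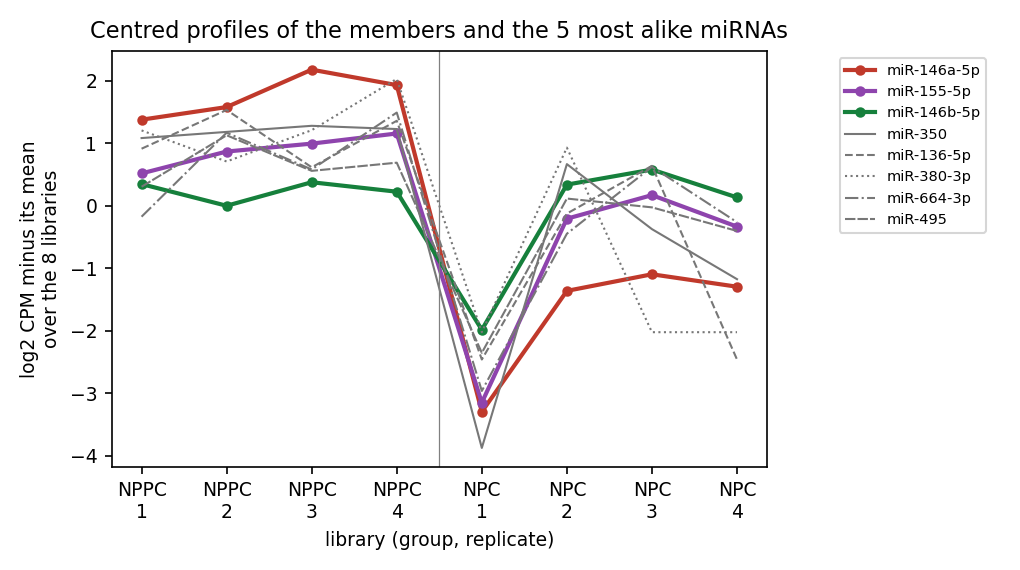
Log2 CPM minus its mean over the 8 libraries for the 3 members (coloured) and the 5 rat miRNAs with the most similar profiles (grey), NPPC left of NPC; lines only join the values of 1 miRNA. The 3 members are lowest in NPC replicate 1, and miR-146a-5p lies below its own mean in all 4 NPC libraries.

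Other miRNAs that respond to or act on NF-kappaB or Toll-like receptor signalling were listed. This list and the leukocyte, red cell and endothelial lists below were chosen with earlier results of these data known. Their counts and p-values are therefore given as a description. Of 20 on the NF-kappaB list, 18 were tested by the edgeR quasi-likelihood test with Benjamini-Hochberg adjustment over all sums. In either direction 0 of them passed, where 1 of all 390 sums (0.256%) did, so this count does not set the list apart. That 1 sum was miR-146a-5p, itself a member. With an unadjusted p under 0.05, 2 were higher and 1 lower in NPPC exosomes, where over all sums 4.10% were higher and 6.41% lower. In either direction that makes 3 of 18 on the list and 41 of 390 sums. Without NPC replicate 1 it was 6 of 18 and 86 of 427 sums, without NPPC replicate 3 it was 1 of 18 and 23 of 401, and with total count scaling 1 of 18 and 43 of 390. The median log2 fold change of the list was 0.17, beside -0.038 over all sums, and it turned to -0.095 with total count scaling.

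The 3 were miR-34a-5p, a target of p53, miR-221-3p, a repressor of the cell cycle inhibitor Cdkn1b, and miR-210-3p, which low oxygen induces. miR-34a-5p averaged 334 ± 22.4 CPM in NPPC and 209.7 ± 52.3 CPM in NPC exosomes (SD, n = 4 each), a log2 fold change of 0.67 (edgeR adjusted p = 0.380). miR-221-3p had 0.31 (edgeR adjusted p = 0.387). miR-210-3p averaged 735 ± 75.7 CPM in NPPC and 986 ± 85.6 CPM in NPC exosomes (SD, n = 4 each), a log2 fold change of -0.42 (edgeR adjusted p = 0.387). The most abundant of the list, miR-21-5p, miR-199a-5p and miR-125b-5p, had 0.53, -0.13 and 0.10, with edgeR adjusted p between 0.596 and 0.708.

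miR-146a and miR-155 are abundant in leukocytes, so miRNAs that mark these cells are given beside them. Of 7 leukocyte miRNAs 5 had a row and 4 were tested. After adjustment over all sums 0 of the 4 passed the edgeR test, beside 1 of 390 sums, miR-146a-5p itself. With an unadjusted p under 0.05 it was 0 of 4, beside 41 of 390 sums. Without NPC replicate 1 that became 1 of 4, beside 86 of 427 sums. The summed level of the 5 with a row was 231 to 327 CPM in NPPC and 128 to 457 CPM in NPC libraries, so that the groups overlapped. miR-142-5p, found in most blood cells, averaged 93.3 ± 37.8 CPM in NPPC and 127 ± 84.6 CPM in NPC exosomes (SD, n = 4 each), a log2 fold change of -0.44 ± 0.96 (SE). It was listed at 0 in NPC replicate 1. In NPC replicates 2 to 4 it was at 172, 172 and 163 CPM, above its NPPC libraries at 65.0 to 148 CPM. miR-142-3p, its other arm, was under the filter, and was listed at 0 in NPPC replicates 1 and 3 and in NPC replicates 1 and 4.

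The myeloid miR-223-3p, under its mouse name, had 0.022 ± 0.95, the lymphocyte miR-150-5p -0.27 ± 0.91 and miR-342-3p 0.14 ± 0.28 (log2 fold change ± SE). The median of the 4 was -0.12. It turned to 0.17 with the replicate block and to 0.31 without NPC replicate 2, and was -0.28 without NPC replicate 1. Neither arm of miR-511, a macrophage miRNA, had a row. The part of leukocyte vesicles in the members' difference was not tested.

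The red cell miRNAs miR-451-5p, miR-144-3p and miR-486 had log2 fold changes of 1.29 ± 0.81, -0.088 ± 0.90 and -0.54 ± 0.68 (SE), and the endothelial miR-126a-3p and miR-126a-5p had -0.14 ± 0.33 and 0.32 ± 0.38 (SE). None of these 5 passed, with edgeR adjusted p between 0.564 and 0.964. The red cell sum ran from 182 to 1392 CPM in NPPC and from 348 to 555 CPM in NPC libraries, and the endothelial sum from 460 to 678 CPM in NPPC and from 277 to 754 CPM in NPC libraries. None of the red cell or endothelial markers was at 0 in every library.

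**Figure D5:**
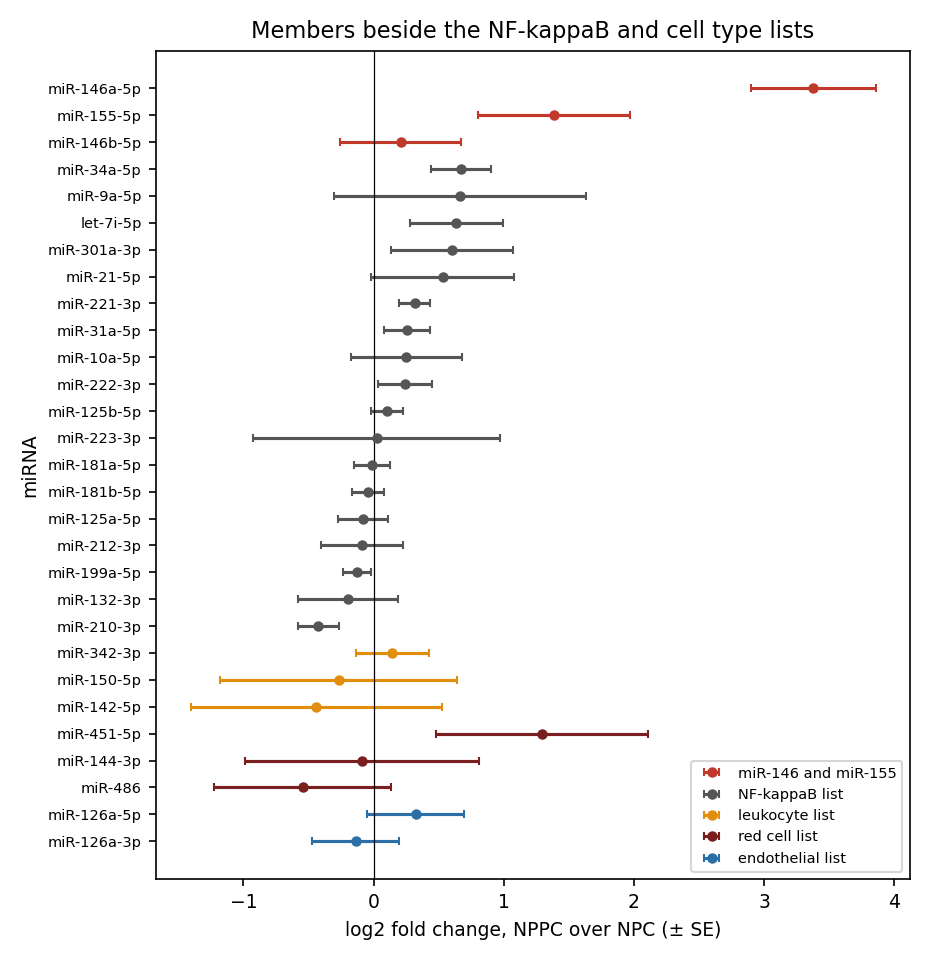
Log2 fold change of NPPC over NPC ± SE for the members and for the tested miRNAs of the NF-kappaB, leukocyte, red cell and endothelial lists; miR-223-3p, in both of the first lists, is drawn once. miR-146a-5p, picked with this difference known, lies at 3.38, above every listed miRNA, and the leukocyte miRNAs lie between -0.44 and 0.14.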

How the data were processed

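Small RNA libraries were made with a TruSeq kit from exosome RNA, per the labels' protocols. The submitters' processing notes name CASAVA 1.8. Not given in the sources used here are the aligner, miRBase version and build. Estimated counts for 1512 rows were deposited by the authors; 82.3% of 5804 values above 0 were whole within 1e-09. The authors' scaled signal, also deposited, was each count multiplied by a constant of its library (spread at most 0.00244% over values above 500) and was not used. Counts were summed per name and rounded. NPPC was compared with NPC by edgeR 4.0.16, R 4.3.3 (TMM, filterByExpr, two-sided quasi-likelihood test, group as the only term, Benjamini-Hochberg over 390 sums). Log2 CPM used a prior count of 2. Within-library ratios and shares were computed with Python 3.11.15. A planned sign-flip test of them is not reported, since the choice of members or the 3p counts at 0 fixed its outcome.

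Deviations of same-numbered libraries had correlations of 0.565, 0.116, 0.366 and 0.243 over 390 sums. Libraries of different numbers were not compared, so whether the numbers, from the sample titles, pair the libraries is not known. The main fit left the number out, and its standard errors and p-values use no pairing. Alternatives were DESeq2 1.42.0, other scalings, filters, a replicate block, unsummed rows, rat names, a loess GC correction (span 0.75), other pseudocounts and each library left out. The tests were checked on simulated data. Members and lists were chosen with earlier results of these data known. The named miRNAs were the members, list miRNAs with an unadjusted p under 0.05 or among the 4 most abundant, the red cell and endothelial markers, and the 5 with the most similar profiles. Outside this rule, miR-140 was added as a tissue check, and miR-142-3p and miR-511 to complete the leukocyte list.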

Additional observations from a re-analysis of the deposited data

Results flagged for a closer look

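The ratio of miR-146a-5p to miR-146b-5p was above 1 in every NPPC library and below 1 in every NPC library, and the group means of its log2 differed by 3.07. This difference was not tested, since the members were chosen on the contrast it comes from.

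Outside the rat-named rows, 1 row with a bovine name held the sequence of miR-146a-5p with 1 further T at its 3′ end, tgagaactgaattccatgggttt, a base that does not match the deposited rat hairpin. It had 0, 19.5, 29 and 18 counts in NPPC replicates 1 to 4 and 0, 9.5, 0 and 0 in NPC replicates 1 to 4. It made up 0% to 2.42% of the reads of both forms in NPPC libraries, and 13.7% in NPC replicate 2.

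A single library lay far from its group in 2 of the 62 groups looked at, and chance alone flags about 1 in 20. miR-142-5p was at 0 CPM in NPC replicate 1 (others 163 to 172), and miR-451-5p was at 834 CPM in NPPC replicate 2 (others 95.4 to 209.7).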

How the results depend on the processing

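Over 17 alternative settings the log2 fold change of miR-146a-5p ran from 2.83 to 3.65 and that of miR-155-5p from 0.604 to 1.76. That of miR-146b-5p ran from -0.219 to 0.512 and was negative in 2. The ratio of miR-146a-5p to miR-146b-5p (log2) stayed between 0.995 and 1.25 in NPPC and between -2.05 and -1.93 in NPC exosomes over 6 settings each. Among these, taking the most abundant row of each mature name could not change the ratio, since both names have 1 row. The number of sums with an adjusted p under 0.05, 1 by edgeR, was 8 with no filter, 6 with the DESeq2 Wald test, 0 with the replicate block and 0 with rows not summed. With a library left out it ran from 0 to 1, and was 1 without NPC replicate 1. The cause was not tested. The replicate block changed no other call. In the NF-kappaB and leukocyte lists 0 miRNAs passed in each of the 17 settings, where 0 to 8 of all sums did. The 3p arms were under the filter and have no fold change. Low counts limit the precision most in NPC replicate 1, the library with the fewest counts.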
